A study of Homo sapiens with 22 samples.

Results

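Transcript levels were compared between H2A.X knockout (KO) and wild-type (WT) HUDEP-2 cells at D6 of maturation. The comparison rests on 5 of the 22 libraries of the series, 3 from H2A.X KO and 2 from H2A.X WT cells, taken by their labelled genotype and differentiation day, and the description covers all 13236 genes that passed a filter on low counts. HUDEP-2 is an immortalized human erythroid progenitor line that expands in the presence of doxycycline and matures towards red cells in differentiation medium. The KO cells carry a CRISPR/Cas9 deletion between a site upstream of the H2A.X start codon and a site just downstream of its stop codon, and they were grown as subclones, and the paper describes both genotypes as subclones. Whether each library, the WT pair included, came from a separate subclone is not given in the sources used here, and a subclone's own features and its genotype cannot be told apart. Cells of both genotypes were kept in medium with SCF, erythropoietin, dexamethasone and doxycycline up to D0 and were then moved to maturation medium with SCF, erythropoietin, insulin, holo-transferrin, plasma, heparin and doxycycline for 6 days. The other H2A.X libraries (3 KO and 2 WT at D0) entered the same fit, and 6 libraries of a BAZ1B KO experiment at D6 are used for comparison. In the count table, the KO replicates 1 and 2 at D6 carry the mark Redo in their column names, and KO replicate 3 and both WT replicates do not. At D0 all 3 KO columns carry the mark and neither WT column does, so that mark and genotype cannot be told apart at D0. What the mark means is not given in the sources used here.

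H2A.X is a histone H2A variant with a C-terminal tail that is phosphorylated at a serine by the DNA damage kinases ATM, ATR and DNA-PK, which gives γ-H2A.X, and at a nearby tyrosine by BAZ1B. The serine mark recruits repair factors such as MDC1 to broken DNA. Late erythroblasts stop dividing, condense their chromatin, fill with hemoglobin, remodel the membrane skeleton, lose their organelles and expel the nucleus.

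The coding bases that end the H2A.X gene are shown because they encode the phosphorylated tail that the deletion removes. They lie at chr11:119094966-119094989 on the minus strand of hg38, in the only exon of the gene, and the capitals mark the codons of residues 139 to 142, of which the first and last are the phosphorylated serine and tyrosine.

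H2A.X tail: gccacccaggccTCCCAGGAGTAC

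The targeted gene, H2AFX in the count table, checks the labels. Its normalized read counts (counts scaled to a common effective library size) were 308, 1050.2 and 799 in KO replicates 1, 2 and 3 and 1748 and 2391 in WT replicates 1 and 2. Every KO library was below both WT libraries, at 14.9%, 50.8% and 38.6% of the WT mean, so that reads on this gene remained in all KO libraries. The counts are for the whole gene, of which the deletion spans the coding part. Where on the gene the remaining reads lie was not tested. By immunoblot, the paper reports both phosphorylated forms of H2A.X as lost in every KO line. The means were 719 ± 378 (SD, n = 3) and 2069 ± 455 (SD, n = 2), and the log2 fold change of -1.52 ± 0.46 (SE) had an adjusted p of 0.0233 in edgeR's quasi-likelihood test. The call was lost without WT replicate 2 (log2 fold change -1.26, adjusted p = 0.163) and with an offset for length and GC content (-0.44, adjusted p = 0.437).

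The 5 libraries held 11910141 to 21013004 reads on genes, with WT replicate 2 the shallowest, and the BCV, the variation between libraries of a group, was 0.239. Globin genes took 2.52% to 4.63% of the reads in each library. Of the marker lists for other blood lineages, 3 of 22 megakaryocyte and platelet genes, 7 of 20 neutrophil and monocyte genes and 1 of 20 lymphoid genes passed the filter. In bulk RNA, fewer cells of a type and less RNA per cell cannot be told apart, and this holds for every result given here.

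At an adjusted p below 0.05, 2940 genes (22.2%) were higher and 2761 genes (20.9%) were lower in KO than in WT cells, which makes 43.1% of the genes tested. The KO and WT ranges did not overlap for 8384 genes (63.3%), with 31% entirely higher and 32.3% entirely lower in KO cells. Stricter thresholds, 0.001 for the adjusted p and 1.5 for the size of the log2 fold change, were passed by 12 genes (0.0907%) that rose and 8 genes (0.0604%) that fell, and these 20 (0.151%) are called differentially expressed genes (DEGs). The same thresholds gave 549 and 354 genes with DESeq2, and 388 and 344 genes passed in edgeR with the p left unadjusted. The study worded its cutoff as a p-value below 0.001 and used DESeq2. Counts from DESeq2 with the p left unadjusted are not given here. The counts also depended on single libraries. Without WT replicate 2, 58 genes were higher and 94 lower at an adjusted p below 0.05, and 1 gene passed as a DEG. Without KO replicate 3, 530 genes passed as DEGs upward and 211 downward, and the counts were 2 and 0 without KO replicate 1, 3 and 1 without KO replicate 2 and 1 and 6 without WT replicate 1. Setting KO replicate 3, the KO library without the Redo mark, against both WT libraries left 400 genes higher and 314 lower. All 20 DEGs kept their direction without WT replicate 2 and also with KO replicate 3 as the only KO library. They were chosen from these same libraries, and their KO and WT values do not overlap, so this is no separate support for them.

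Among the DEGs that rose, several were near 0 in both WT libraries. SMAD1, which carries BMP signals to the nucleus, had normalized counts of 272, 293 and 345 in KO cells and 2.28 and 1.79 in WT cells. No WT library came near the KO range. The log2 fold change was 7.10 ± 0.41 (SE) with an adjusted p of 0.000151 in edgeR's test, and since WT held only 3 reads in all, the ratio of the summed counts, 145, had a counting interval of 49.3 to 702 (exact, 95%). SMAD1 lies at chr4:145481194-145559176.

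The small GTPase RAB4A, which returns endosomal cargo such as the transferrin receptor to the cell surface, had the smallest adjusted p of the DEGs, at 1.04e-06. Its normalized counts were 1153, 986 and 1031 in KO and 22.8 and 21.5 in WT cells, a log2 fold change of 5.56 ± 0.21 (SE). UBE2C, the ubiquitin-conjugating enzyme with which the anaphase-promoting complex drives mitotic exit, stood at 429.7, 488 and 278 in KO cells and at 5.71 and 16.1 in WT cells. The KO and WT values of both genes were separated by more than the whole spread within either group. PFKFB2, which makes the allosteric activator of glycolysis fructose 2,6-bisphosphate, was at 312, 209 and 211 in KO and 8.00 and 3.58 in WT cells.

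ZNF569, a KRAB zinc finger gene, had a log2 fold change of 6.40 with 3 WT reads in all (ratio 89.5, counting interval 30.5 to 435), and SLFN13, a Schlafen RNase that cleaves tRNA and rRNA, 5.98 with 2 WT reads (ratio 69.1, interval 19 to 573). The glycosyltransferase gene B3GALNT1, with 4 reads in WT replicate 1 and none in WT replicate 2, rose by 6.32 (ratio 81.5, counting interval 31.7 to 300, and a fitted 10.86 without WT replicate 1, which leaves no WT read), the transcript AL162595.1 by 5.71 and CARD6, which carries a caspase recruitment domain, by 4.23 on the log2 scale. The adhesion protein gene TLN2 (talin 2), the zinc finger gene ZNF845 and the lipid flippase gene ATP9A rose by 3.31, 2.32 and 2.21, from WT values that were well above 0. All 12 of these genes were also called higher in KO cells at D0, where every KO column has the Redo mark, at an adjusted p below 0.05, against 18.4% of all tested genes.

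The 150 bases upstream of the transcription start are shown for the 2 risen genes with the smallest adjusted p, with each CG dinucleotide in capitals. The sequences are from RefSeq (GRCh38.p14), at chr4:145481156-145481305 for the first listed of 5 SMAD1 starts and at chr1:229270961-229271110 for RAB4A, both on the plus strand. These RefSeq starts lie downstream of the GENCODE gene starts, 145481194 for SMAD1 and 229271062 for RAB4A. Part of each stretch is therefore inside the gene as GENCODE annotates it.

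SMAD1: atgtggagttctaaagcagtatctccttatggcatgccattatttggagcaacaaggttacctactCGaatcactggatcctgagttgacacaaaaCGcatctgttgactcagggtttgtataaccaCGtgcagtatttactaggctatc

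RAB4A: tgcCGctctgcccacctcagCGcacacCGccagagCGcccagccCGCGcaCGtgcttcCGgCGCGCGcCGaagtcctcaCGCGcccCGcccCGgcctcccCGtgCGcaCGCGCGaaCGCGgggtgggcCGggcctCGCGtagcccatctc

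The 2 promoters differed in this feature. The window of 250 bases before to 50 after the start held 5 CG dinucleotides for SMAD1, a number that 70.4% of all 35116 promoters in the table reach, and 38 for RAB4A, which 9.91% reach. Of the 20 DEGs, 12 had a promoter in the table, with 3 (CARD6) to 65 (ATP9A) CG dinucleotides, so that the DEG promoters ranged from CG-poor to CG-rich. Their median was 28 against 14 over all promoters. The latter were not limited to genes tested here, so the 2 medians are not a like comparison. For genes with several starts, the first listed was used.

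The 8 DEGs that fell encode proteins of differing kinds. CST7, which encodes the cysteine protease inhibitor cystatin F, had normalized counts of 0.918, 0.95 and 2.90 in KO cells and 189.6 and 78.7 in WT cells, a log2 fold change of -6.31 ± 0.56 (SE). The KO libraries held 1, 1 and 3 reads of this gene, and the ratio of WT to KO, 93.0, had a counting interval of 39.2 to 290. LGALS1, for the sugar-binding lectin galectin-1, stood at 4.59, 9.5 and 19.3 in KO and 378 and 222 in WT cells (log2 fold change -4.75). SERPINB6, a clade B serine protease inhibitor, fell by 5.57 and CAPG, an actin filament capping protein gene, by 4.17 on the log2 scale.

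HES1, a transcriptional repressor downstream of Notch, had normalized counts of 40.4, 25.7 and 35.7 in KO against 248 and 222 in WT cells. CD70, the ligand of the TNF receptor family member CD27, was at 204, 192 and 219 against 1178 and 1269. The prostaglandin E receptor gene PTGER3 and the kelch gene KLHDC8B fell by 2.79 and 2.15 on the log2 scale. The KO and WT values of these genes did not overlap. The WT libraries differed from each other most visibly for KLHDC8B, at 3009 and 4119, against 840, 758 and 801 in KO cells.

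**Figure D1:**
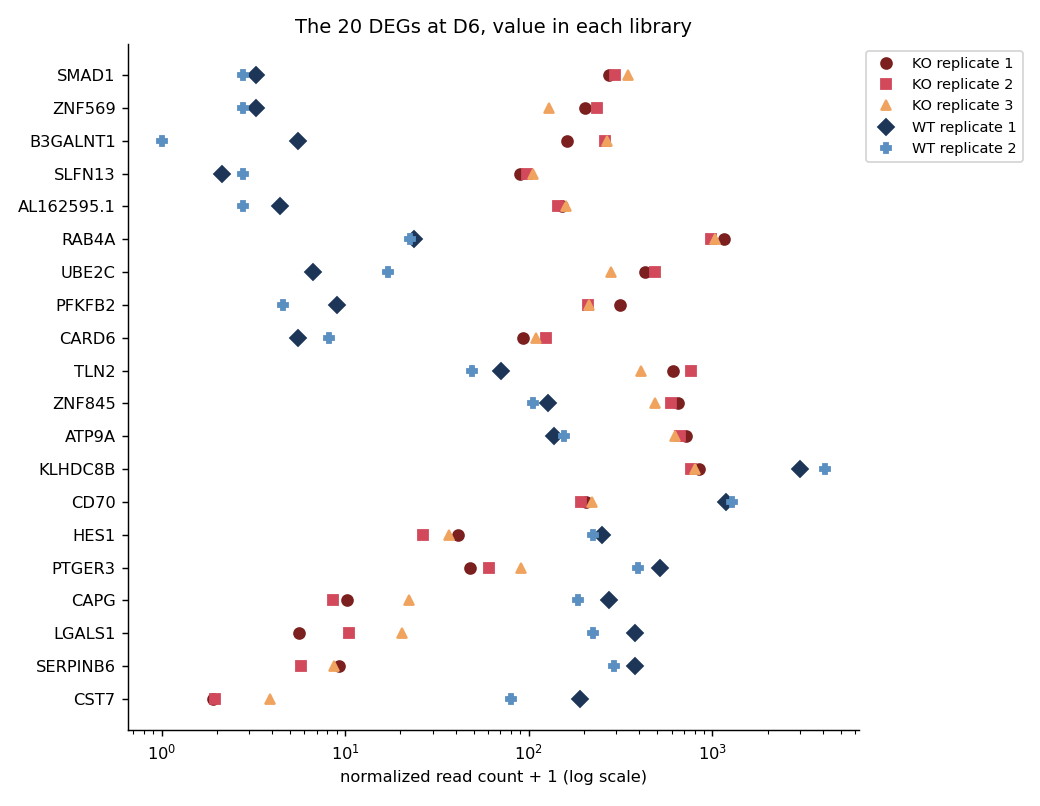
Normalized read count plus 1 (log scale) of the 20 DEGs in each D6 library, with KO replicates as red to orange symbols and WT replicates as blue symbols. KO and WT values do not overlap for any of the 20 genes, and in SMAD1, ZNF569, SLFN13, AL162595.1 and B3GALNT1 both WT libraries had fewer than 5 normalized counts.

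The BAZ1B experiment has its own WT HUDEP-2 libraries, in a table normalized separately. There, 10 of the 12 risen DEGs stood at 50 or more normalized counts in each of the 3 WT libraries at D6. SMAD1 ranged from 957 to 1077 in these WT libraries, RAB4A from 1496 to 1677, UBE2C from 1354 to 1502 and B3GALNT1 from 540.1 to 576. For these 4 genes the H2A.X WT libraries were the lowest of the D6 libraries of both tables. The exceptions were PFKFB2, with 2.26 to 6.05, and ZNF569, with 4.53 to 13.1. Of the fallen DEGs, SERPINB6 was at 0 to 3.35 in the BAZ1B WT libraries, and the other 7 were at 50 or more. In BAZ1B KO against WT cells at D6, PFKFB2 (5.67), PTGER3 (1.37) and KLHDC8B (0.33) were called higher on the log2 scale, at an adjusted p below 0.05. SLFN13 (-5.57), CST7 (-2.55), CAPG (-1.23), LGALS1 (-1.22) and SMAD1 (-0.49) were called lower. The direction was that of H2A.X KO cells for PFKFB2, CST7, CAPG and LGALS1 and the opposite for PTGER3, KLHDC8B, SLFN13 and SMAD1. Of 12870 genes tested in both experiments, 951 were higher and 784 lower.

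The same look at the WT libraries of both experiments, for genes outside the rule for named genes, was added after the values were seen. At most 3 reads in each WT library and at least 50 normalized counts in each KO library were found for 10 genes, namely AL162595.1, RFTN1, SMAD1, PDGFC, HRH2, MAP3K5, UNC13B, SLFN13, ZNF569 and MAGED1. Of these, 7 stood at 50 or more in every BAZ1B WT library at D6. The reverse pattern was found for 2 genes, IGFL2 and CST7. Differences between subclones and the effect of the deletion cannot be told apart for such genes, since each subclone carries a single genotype.

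The largest gene classes that fell were those of translation and of the respiratory chain. Counts for every list below stand beside 22.2% higher and 20.9% lower over all tested genes. Of 78 tested cytoplasmic ribosomal protein genes, 73 fell and none rose, with a median log2 fold change of -1.13 against -0.01 for all tested genes. They took 9.35%, 9.30% and 10.9% of the reads in KO replicates 1, 2 and 3 and 16.9% and 21.1% in WT replicates 1 and 2. Every KO library was below both WT libraries. RPS19, the subunit gene most often mutated in Diamond-Blackfan anemia, had normalized counts of 25952, 30396 and 30228 in KO and 64957 and 107303 in WT cells, a log2 fold change of -1.58 ± 0.25 (SE), and RPL39, which lines the exit tunnel of the ribosome, fell by 1.62. The median was -0.81 without WT replicate 2, with no member called, and -0.61 with the length and GC offset, with 46 members still lower.

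Genes of the mitochondrial ribosome, which translates the subunits encoded in mitochondrial DNA, fell in 57 of 76 cases and rose in none (median -0.85). MRPL12, which also binds the mitochondrial RNA polymerase, stood at 272, 239 and 431 in KO and 1175 and 1585 in WT cells (log2 fold change -2.14), and MRPL23 fell by 1.89. Both kinds of ribosome were thus lower on the side of their protein genes. Without WT replicate 2 none of the 57 calls was kept.

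Small nucleolar RNA host genes carry snoRNAs, which guide the modification of ribosomal RNA, in their introns. Of 28 tested host genes, 22 fell and 1 rose, with a median log2 fold change of -1.52. SNHG19 had normalized counts of 39.5, 31.4 and 108 in KO and 370.1 and 787 in WT cells, SNHG25 was at 15.6, 15.2 and 17.4 against 78.8 and 224, and SNHG14, whose longest transcript has 24124 nt against 564 and 311 nt, rose from 225 and 186 in WT to 622, 458 and 350.4 in KO cells. The 2 fallen genes were lower in every KO library than in both WT libraries. Without WT replicate 2, 5 members were called lower.

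Complex I, the entry point of electrons from NADH, had 33 of 38 subunit genes lower and 1 higher (median -1.17). NDUFS6 had normalized counts of 701, 704 and 1166 in KO and 2322 and 4288 in WT cells, and NDUFA13, whose product also binds STAT3, fell by 1.76 on the log2 scale. The exception was NDUFS1, the largest subunit, which rose by 0.46 on the log2 scale and was at -0.53 with the length and GC offset. The factors that assemble complex I moved with it, with 13 of 20 lower and none higher (median -0.63), among them NDUFAF8 (-1.75) and NDUFAF4 (-1.47).

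Subunits of complexes II, III and IV were lower in 21 of 27 cases and higher in none (median -1.10), and those of ATP synthase in 17 of 18 cases (median -1.19). COX5B, in complex IV, was at 1612, 1493 and 2048 in KO and 3795 and 5968 in WT cells. ATP5IF1, the inhibitor of ATP synthase that binds when the enzyme runs in reverse, was at 3179.9, 3562 and 4575 against 10598 and 17403 (log2 fold change -1.89). UQCRQ of complex III and ATP5F1D of ATP synthase fell by 1.44 and 1.81. In each of these lists every KO library had a median below 0, and KO replicate 3 was the nearest to 0 (-0.92 for complex I, -0.94 for ATP synthase).

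The 15 genes of the mitochondrial genome itself did not share this direction. Their median log2 fold change was -0.06, with 3 genes higher and 3 lower, close to the 22.2% and 20.9% over all genes, and the median was 0.62 with the length and GC offset, with 3 higher and none lower. They took 1.90% to 2.23% of the reads in KO and 2.07% and 2.17% in WT libraries. MT-RNR1, the small ribosomal RNA, fell by 1.39 and MT-ND3 by 0.86 (0.13 with the length and GC offset). MT-ND4L and MT-ATP8 rose by 2.66 and 2.36, but both overlap a neighbouring mitochondrial gene, so that their reads cannot be assigned to them alone.

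**Figure D2:**
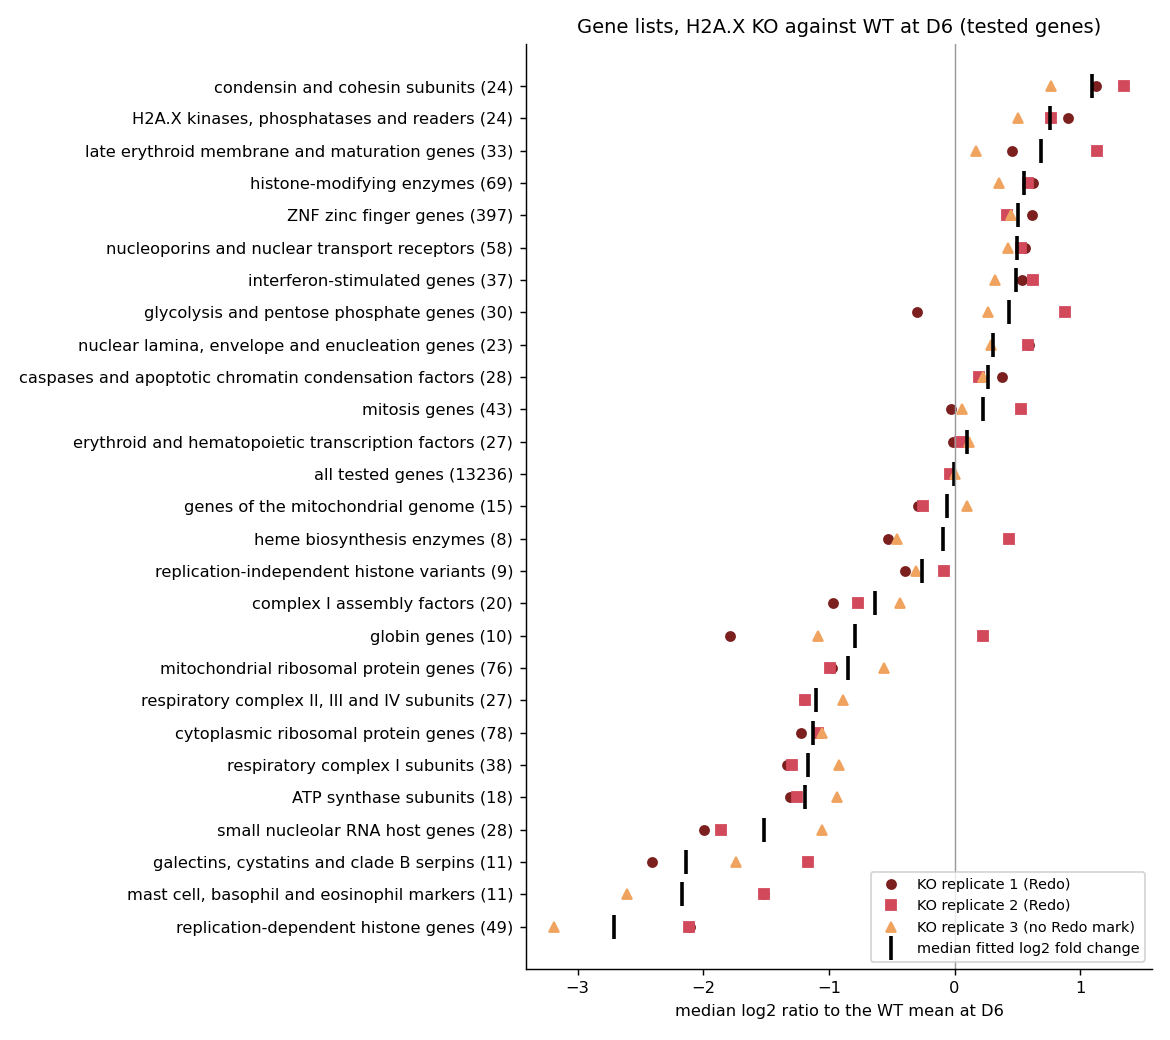
Median log2 ratio to the WT mean at D6 for the tested genes of 26 lists and for all tested genes, with a symbol for each KO library and a black bar for the median of the fitted log2 fold changes, and the number of tested genes in parentheses. Ribosomal, respiratory and snoRNA host lists lie between -0.63 and -1.52 and condensin and cohesin subunits at 1.09, with KO replicate 3 nearer to 0 than the other KO libraries in most of these lists.

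Replication-dependent histone genes had the lowest median of the 26 lists described, at -2.71, with 41 of 49 tested genes lower and none higher. Their transcripts end in a stem-loop in place of a poly(A) tail, and the libraries were made from poly(A) RNA, so that only a small part of them was measured. They took 0.00632%, 0.00817% and 0.00492% of the reads in KO replicates 1, 2 and 3, 0.0147% in WT replicate 1 and 0.0505% in WT replicate 2. The difference between the WT libraries exceeded that between WT replicate 1 and the KO libraries. WT replicate 2 also had the largest share of reads on snRNA and snoRNA genes, 0.0226%, against 0.00154% to 0.00669% in the other D6 libraries. HIST1H4B had normalized counts of 21.1, 15.2 and 11.6 in KO and 119.9 and 669 in WT cells, and HIST1H4H 7.35, 6.65 and 8.69 against 60.5 and 277. Without WT replicate 2 the median was -1.29 and 3 members were called lower. Members of this family share near-identical coding sequence, and how the counting split such reads was not tested.

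Among the histone variants made outside S phase, 1 of 9 tested genes rose and 4 fell. H1F0, the linker histone H1.0 of cells that leave the cycle, had normalized counts of 2175, 1285 and 1124 in KO and 266 and 476 in WT cells (log2 fold change 2.05 ± 0.53, SE). All KO values lay above both WT values. H2AFZ, for H2A.Z, fell from 12064 and 16118 in WT to 6187, 5768 and 6208 in KO cells (log2 fold change -1.22), and H3F3B, for H3.3, fell by 0.92.

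Kinases, phosphatases and readers of H2A.X were mostly higher in KO cells, with 15 of 24 tested genes higher and 2 lower and a median log2 fold change of 0.76. PRKDC, the catalytic subunit of DNA-PK, had normalized counts of 31260.1, 21732 and 11579.5 in KO and 7748 and 4796 in WT cells. RAD50, of the MRN complex that holds DNA ends, rose by 2.10. PPP4C, the catalytic subunit of a phosphatase that acts on γ-H2A.X, and the acetyltransferase gene KAT5 fell by 0.86 and 0.54. The median longest transcript of this list was 6206 nt, against 3704 nt over all tested genes with an annotated length, and with the length and GC offset the median log2 fold change was 0.04 and 3 members were higher.

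Condensin and cohesin subunits had the highest median of the 26 lists described, 1.09, with 18 of 24 genes higher and 2 lower. Condensin compacts mitotic chromosomes, and cohesin holds sister chromatids together and forms loops. SMC2, the condensin ATPase, had normalized counts of 7206, 9309 and 4176 in KO and 2225 and 2040.0 in WT cells, and STAG2, of cohesin, 7385, 7465 and 3794 against 2097 and 1936. KO replicate 3 was the lowest KO library for both and was still above both WT libraries. NCAPH2 of condensin II and CDCA5 (sororin), which protects cohesin, fell by 0.60 and 0.37. With the length and GC offset the median was 0.42, with 12 members higher and none lower.

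Enzymes that write and erase histone marks rose in 33 of 69 cases and fell in 4 (median 0.56). With the length and GC offset the median was 0.22, with 23 members higher, and without WT replicate 2 no member was called. The acetyltransferase genes EP300 and KAT6A showed the largest rises, from 489 and 356 in WT to 3999, 4504 and 1229.9 in KO cells and from 500.3 and 415 to 3227, 3098 and 1130.4. In both genes KO replicate 3 stood between the WT libraries and the other KO libraries. The deacetylase gene HDAC8 and the arginine methyltransferase gene PRMT1 fell by 0.81 and 0.70.

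Of 23 nuclear lamina, envelope and enucleation genes, 10 were called higher (43.5%) and 5 lower (21.7%), against 22.2% and 20.9% over all genes. The citron kinase gene CIT and MYH10, a non-muscle myosin that acts in cytokinesis and enucleation, rose by 1.51 and 1.31. LMNA, for lamins A and C, had normalized counts of 7028, 5789 and 7957 in KO and 12199.7 and 13534 in WT cells, a fall of 0.89, and BANF1, which tethers DNA to the nuclear envelope, fell by 0.84 (0.10 with the length and GC offset). Nucleoporins and nuclear transport receptors rose in 31 of 58 cases and fell in 6 (median 0.50), with NUP153 and IPO7 the most raised (1.51 and 1.49) and NXT1 and RAN lower (-1.01 and -0.60). The median of this list crossed 0 with the length and GC offset, to -0.05.

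Caspases and apoptotic chromatin condensation factors were called in 13 of 28 cases, with 8 higher and 5 lower, a share near the 43.1% over all genes. APAF1, the scaffold of the apoptosome, rose from 86.8 and 100.2 in WT to 376, 298 and 193 in KO cells, and the caspase inhibitor gene XIAP by 1.5 on the log2 scale. The nuclease genes ENDOG and DFFB fell, ENDOG from 633 and 882 to 208, 230.0 and 287 and DFFB by 0.97. The list median was 0.27, and 0.01 with the length and GC offset.

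Of 43 mitosis genes, 19 were called higher (44.2%) and 11 lower (25.6%), against 22.2% and 20.9% over all genes. Besides UBE2C, MKI67, the proliferation antigen, rose from 4030.0 and 4116 in WT to 13824, 19577 and 5611 in KO cells. Its longest transcript has 12716 nt, and with the length and GC offset its log2 fold change was 0.73 and not called. In that fit 10 members of the list were higher and 5 lower. UBE2S, which extends the ubiquitin chains that UBE2C starts, fell by 1.63 and PTTG1 (securin) by 1.51. The 2 ubiquitin-conjugating enzymes of the anaphase-promoting complex thus differed in opposite directions between these KO and WT libraries. UBE2C stood at 1354 to 1502 in the BAZ1B WT libraries at D6, in a table normalized separately. Without WT replicate 2 the log2 fold change of UBE2S was -1.14. Whether the deletion lies behind either difference was not tested.

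Erythroid genes were checked as the identity of the cells and then compared. Late erythroid membrane and maturation genes rose in 13 of 33 cases and fell in 1, with a median of 0.69 that the length and GC offset left at 0.72. EPB41 (protein 4.1) had normalized counts of 13758, 20289.7 and 7435 in KO and 4449 and 4227 in WT cells. Every KO library was above both WT libraries for this membrane skeleton gene. ICAM4, the Landsteiner-Wiener blood group antigen, fell by 0.57 and was at 0.28 with the offset. The list medians of single KO libraries ranged from 0.17 in KO replicate 3 to 1.13 in KO replicate 2. Without WT replicate 2 the median was 0.84 and no member was called.

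Globin genes and the alpha globin chaperone AHSP had a median of -0.79 over 10 tested genes, of which 2 fell and none rose. HBQ1 (theta globin) was at 218, 422 and 250 in KO and 789 and 1512 in WT cells, and AHSP at 15205, 25186 and 17628 against 26203 and 46833 (log2 fold change -0.92, and 0.29 with the length and GC offset). The medians of KO replicates 1, 2 and 3 were -1.79, 0.22 and -1.08, and the list median was 0.04 without WT replicate 2 and 0.81 with the length and GC offset, so no direction for the globin genes held across these settings. Of 8 heme biosynthesis enzymes, ALAD rose by 0.55 and PPOX fell by 0.80, and the other 6 did not pass the test.

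Of 27 tested erythroid and hematopoietic transcription factors, 7 rose and 5 fell, close to the 22.2% and 20.9% over all genes. FOXO3, which switches on late erythroid genes, had normalized counts of 4999.9, 6756 and 1435 in KO and 938 and 997 in WT cells, and KLF13, 11483, 16339.9 and 5225 against 2953 and 3219. KO replicate 3 lay nearer to the WT libraries than to the other KO libraries for both. GATA2, the progenitor factor that GATA1 replaces during maturation, fell from 1659 and 902 to 369, 278 and 572 (log2 fold change -1.66), and LYL1 by 1.07.

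Markers of mast cells, basophils and eosinophils took 0.0264% and 0.0137% of the reads in WT replicates 1 and 2 and 0.000466% to 0.00202% in KO libraries at D6. Of 24 listed genes, 11 were tested, 5 fell and 1 rose. The tryptase genes TPSB2 (76.2, 34.2 and 149.6 in KO against 2663 and 1789 in WT cells) and TPSAB1 (29.4, 13.3 and 80.1 against 1395 and 746) accounted for most of these reads, and since they are near-identical copies their reads may be split between them. At D0 the same list took 0.0316% to 0.072% in KO and 0.0136% and 0.0148% in WT libraries, the reverse order. Their part in the other results was not tested.

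ZNF zinc finger genes, most of which encode KRAB repressors of transposable elements, rose in 146 of 397 cases and fell in 33 (median 0.50). These shares were 36.8% and 8.31%, against 22.2% and 20.9% over all genes. ZNF569 and ZNF607 had the largest rises among the more abundant members (6.40 and 3.58), and ZNF593 and ZNF692 the largest falls (-1.75 and -1.61). With the length and GC offset 65 were higher and 26 lower.

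Interferon-stimulated genes rose in 15 of 37 cases (40.5%) and fell in 5 (13.5%), against 22.2% and 20.9% over all genes. The median was 0.49, and 0.27 with the length and GC offset, with 10 members higher and 1 lower. EPSTI1 was at 27.5, 217 and 56.0 in KO and at 0 and 3.58 in WT cells, and HERC6, an E3 ligase, at 201, 145 and 90.7 against 8.00 and 14.3. BST2 (tetherin), which holds budding virus at the membrane, and IFITM2 fell by 1.75 and 1.44. Among 11 tested of 39 listed galectins, cystatins and clade B serpins, 8 fell (72.7%) and 1, LGALS8, rose (0.99), against 20.9% and 22.2% over all genes. This list holds 3 of the fallen DEGs and was chosen with earlier results of these data known. Its count is therefore no separate support for a class effect. Of 30 glycolysis and pentose phosphate genes 13.3% were called higher and 10% lower, against 22.2% and 20.9% over all genes. The 4 that rose included PFKFB2 and PFKP (1.45), the platelet isoform of phosphofructokinase, and the 3 that fell included ENO3 (-1.89) and LDHB (-1.69). The groups overlapped for PFKP, which was at 343, 1276 and 668 in KO and 367 and 186 in WT cells.

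Longer transcripts had higher log2 fold changes. Over 12012 tested genes with an annotated length, the Spearman coefficient of the log2 fold change with the length of the longest transcript was 0.55 (across genes, which are not independent replicates). The genes were split into 10 groups of about 1202 by length. The group of shortest transcripts (median 998 nt) had a median log2 fold change of -0.95, with 55.8% called lower and 2.16% higher, and the group of longest transcripts (median 9546 nt) had 0.94, with 3.58% lower and 59.7% higher. The fifth group (3118 to 3704 nt) had a median of 0.01. GC content ran the other way, with a coefficient of -0.35. The trend was weaker with the median transcript length of each gene (0.26).

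The trend was present in each KO library, with coefficients of 0.55, 0.50 and 0.51 for KO replicates 1, 2 and 3 against the WT mean, with and without the Redo mark. The distance between the medians of the longest and the shortest group was 2.20 and 2.04 in the Redo libraries and 1.37 in KO replicate 3. It was also present between the WT libraries: WT replicate 2 against WT replicate 1 had a coefficient of -0.34, with short genes 0.37 higher and long genes 0.20 lower in WT replicate 2. At D0, where all KO columns carry the mark, the coefficient for KO against WT was 0.50, and in the BAZ1B experiment at D6 it was 0.04.

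As a value per library, the median log2 normalized count of the longest group minus that of the shortest was 2.74 ± 0.41 (SD, n = 3) in KO and 0.78 ± 0.48 (SD, n = 2) in WT libraries. The difference of 1.96 had p = 0.2 in a two-sided exact permutation test, which doubles the smaller one-sided p and can go no lower with 3 against 2 libraries. What lies behind the trend was not tested. A fit with a smooth offset for length and GC content in each library brought the coefficient to 0.04 and the span between the outer groups to 0.17, and left 1489 genes higher and 1711 lower at an adjusted p below 0.05 among 12012.

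**Figure D3:**
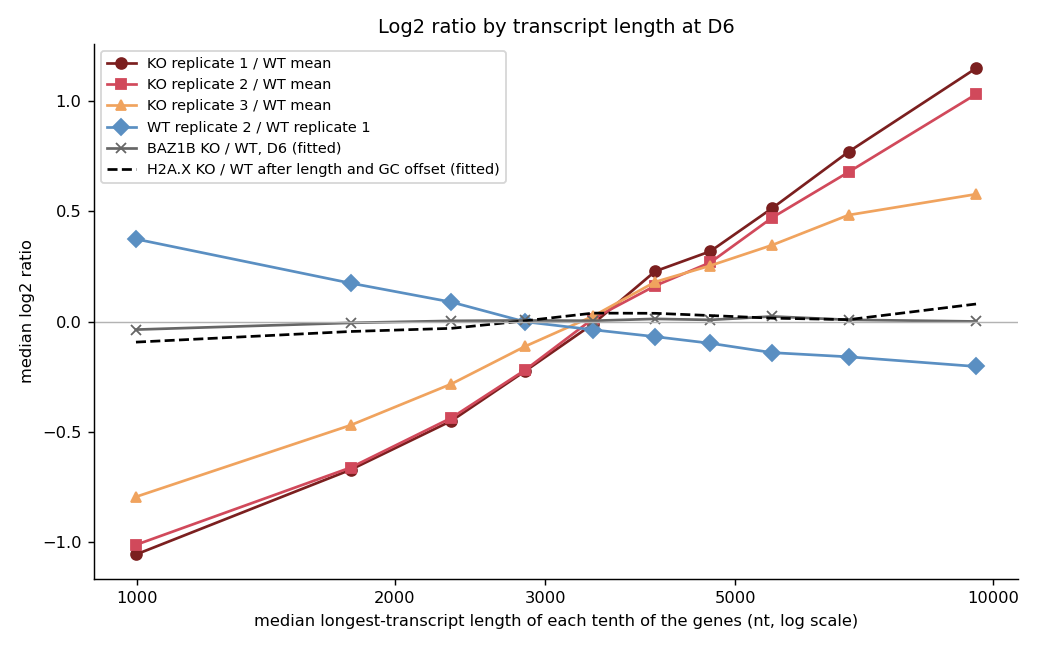
Median log2 ratio in 10 equal groups of genes by longest transcript (x axis, nt, log scale) for each KO library against the WT mean, for WT replicate 2 against WT replicate 1, for BAZ1B KO against WT at D6 and for the H2A.X fit with the length and GC offset. The KO lines rise from about -1.05 to 1.15 in KO replicate 1 and from -0.79 to 0.58 in KO replicate 3, the line for the WT pair falls, and the last 2 lines stay near 0.

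The gene classes were set beside this trend. With the length and GC offset, the medians of the classes of long genes moved towards 0, from 0.76 to 0.04 for H2A.X kinases and readers, from 0.50 to -0.05 for nucleoporins and from 1.09 to 0.42 for condensin and cohesin. The classes of short genes moved towards 0 as well but stayed below it, with -0.61 for cytoplasmic and -0.48 for mitochondrial ribosomal protein genes, -0.63 for complex I and -0.83 for ATP synthase. The offset used the longest annotated transcript of each gene, such as 1915 nt for RPL39 and 2021 nt for RPS19. That transcript need not be the one expressed, and an offset from other lengths was not tested. Small nucleolar RNA host genes (-1.37), late erythroid membrane genes (0.72) and the mast cell, basophil and eosinophil list (-2.42) stayed near their reported medians. Without WT replicate 2, 16 of the 26 lists had no member called in either direction, and 15 ZNF zinc finger genes, 5 snoRNA host genes and 4 of the galectins, cystatins and clade B serpins were the most that stayed past the test. Of the 19 DEGs that could be fitted with the offset, all 19 had an adjusted p below 0.05. They were chosen from these same libraries for large changes, so this is no separate support for them. At the DEG thresholds the offset left 2 of them. In the BAZ1B experiment at D6, which shares no library with this comparison, the medians were -0.01 for cytoplasmic ribosomal protein genes, 0.00 for complex I and -0.01 for condensin and cohesin.

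**Figure D4:**
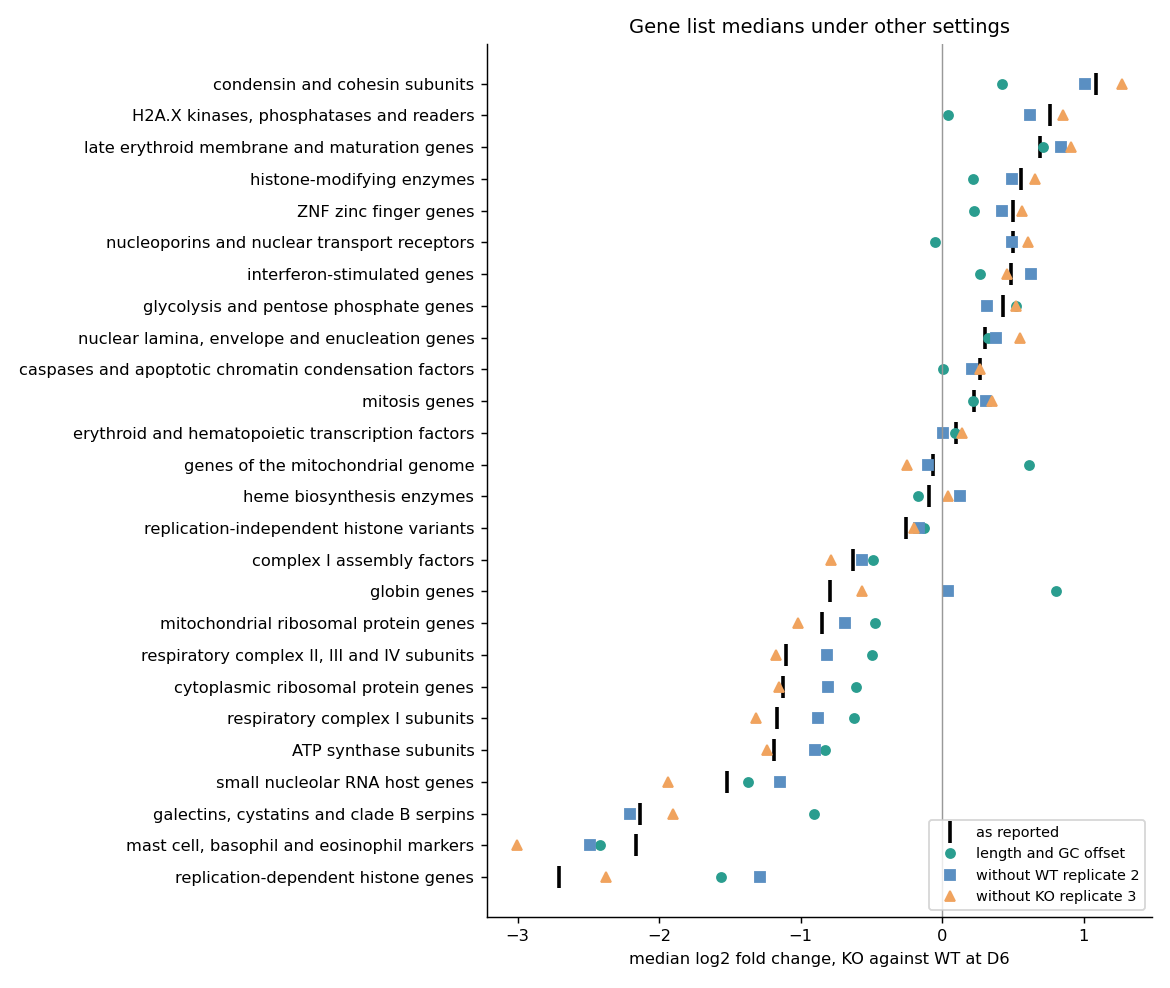
Median log2 fold change of each list as reported (black bar), with the length and GC offset (green circle), without WT replicate 2 (blue square) and without KO replicate 3 (orange triangle). The globin list moves from -0.79 to 0.04 and 0.81, and replication-dependent histones from -2.71 to -1.29 without WT replicate 2.

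KO replicate 3, the KO library without the Redo mark, stood between the other KO libraries and the WT libraries. Over 9300 genes with a mean of at least 100 normalized counts, its log2 counts correlated with those of KO replicates 1 and 2 at r = 0.94 and with those of WT replicates 1 and 2 at 0.93 and 0.89, whereas KO replicates 1 and 2 correlated with each other at 0.96 and with the WT libraries at 0.81 to 0.85. The median absolute log2 ratio to the WT mean was 0.52 in KO replicate 3 and 0.78 in both Redo libraries, and 22.4% of genes differed by more than 2-fold, against 38.9% and 38.6%.

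Its label was checked against D0. The deviation of KO replicate 3 from the KO mean at D6 correlated best with that of KO replicate 3 at D0 (r = 0.30, against -0.20 and 0.05 for KO replicates 1 and 2), and the deviations of KO replicates 1 and 2 likewise correlated best with their own numbers (0.60 and 0.44). These correlations are across genes of libraries that share their group means. KO replicate 3 carries the mark at D0, where its longest group minus its shortest was 2.74, beside 2.74 and 2.64 for KO replicates 1 and 2, and lacks it at D6, where the value was 2.29, beside 3.08 and 2.85. The part of the mark in this was not tested.

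The effect of the KO differed between days for some of these genes, in a comparison where the Redo mark goes with genotype at D0. The KO effect at D6 was more positive than at D0 for 40 genes (0.302%) and more negative for 137 genes (1.04%). Both counts use an adjusted p below 0.05 for the difference itself. They were 211 (1.59%) and 341 genes (2.58%) with what is here called a term for the subclone. This term pairs D0 and D6 libraries of the same genotype and replicate number. Whether such libraries came from the same subclone is not given in the sources used here. Without WT replicate 1 the counts were 3 and 39, without WT replicate 2 they were 10 and 84, and without KO replicate 3 they were 479 and 372. Of the 8 DEGs that fell at D6, 6 had such a difference, and of the 12 DEGs that rose, 1 had. The DEGs were chosen by their KO effect at D6, which is part of this difference, so these counts are no separate support. Of the 8 that fell, 2 were called lower at D0, against 16.7% of all tested genes. CST7 was at 112 ± 28.2 (SD, n = 3) in KO and 9.24 ± 1.23 (SD, n = 2) normalized counts in WT cells at D0, the reverse of D6, and LGALS1 at 850.4 ± 233 and 138 ± 28. In these 2 genes the KO libraries were above the WT libraries at D0 and below them at D6.

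CAPG, HES1, PTGER3 and CD70 were at 729, 407, 805 and 916 normalized counts in KO cells at D0, on average, and at 472, 204, 858 and 906 in WT cells. The differences between the KO effects at D6 and D0 were -4.80, -3.79, -2.70 and -2.59 on the log2 scale. GATA2 was at 3879.7 ± 117 (SD, n = 3) in KO and 1161 ± 99.9 (SD, n = 2) in WT cells at D0, above WT, and below WT at D6.

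**Figure D5:**
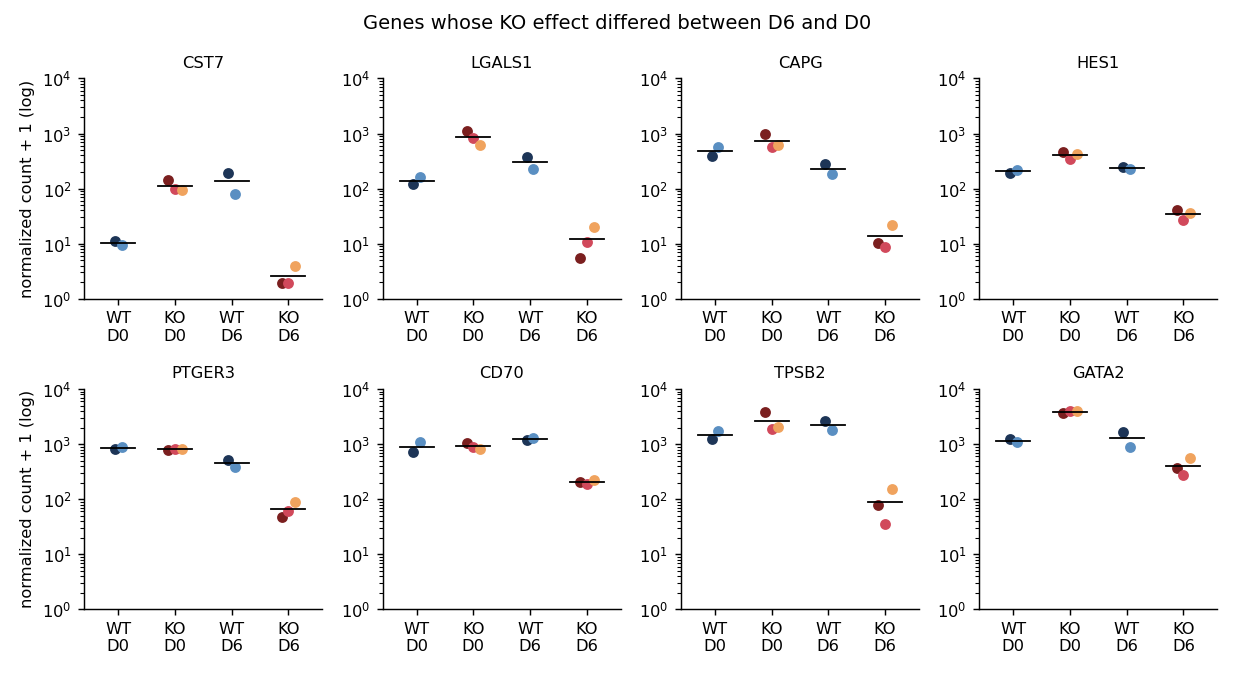
Normalized read count plus 1 (log scale) at D0 and D6 in WT (blue) and KO (red to orange) libraries for 8 genes whose KO effect differed between the days, with a black line for each group mean. In CST7, LGALS1 and GATA2 the KO mean is above the WT mean at D0 and below it at D6.

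By chromosome, the median log2 fold change ran from -0.34 on chromosome 19 (907 genes) to 0.30 on chromosome 4 (406 genes). Their median longest transcripts were 3058 and 4049 nt, and with the length and GC offset the medians were -0.01 and 0.08. The median of the 18 mitochondrial genes tested went from -0.27 to 0.49 with the offset. Chromosome 18 (159 genes) moved away from 0 as well. Its medians were -0.24 and -0.27 in KO replicates 1 and 2 and 0.11 in KO replicate 3, and -0.34 in the fit with the offset, the lowest of all chromosomes in that fit.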

How the data were processed

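Poly(A) RNA of HUDEP-2 cells was sequenced as single-end reads. The deposited counts are whole reads per gene, made by the authors with STAR 2.7.0f and featureCounts of Subread 1.6.4 on hg38, per the submitters' processing notes. The labels name an unstranded kit and reads of 100 nt, and the paper a stranded kit and 75 nt. How the counting used strand is not given in the sources used here, so that a gene and an antisense partner may share reads. The 10 H2A.X libraries were fitted together with a coefficient for each genotype and day in edgeR 4.0.16 (TMM scaling, filterByExpr with a minimum of 10 and 15 in total, quasi-likelihood test, Benjamini-Hochberg adjustment over all 13236 tested genes). Ratios of single libraries used log2 of the normalized count plus 0.5. Alternatives were DESeq2 1.42.0, upper-quartile scaling, no filter, no globin genes, the D6 libraries alone, a replicate block, a spline offset (5 degrees of freedom) for length and GC content, and leaving out libraries. The steps were tested on simulated data.

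The samples and the 55 gene lists were chosen with earlier results of these data known. Named genes are H2AFX, every DEG and, in each of the 26 lists described, up to 2 members called higher and 2 called lower with the largest change among members with a mean of at least 50 normalized counts, or, where none was called, the most abundant member. Lengths and positions are from GENCODE on GRCh38, where 36434 of 59087 gene names matched a current and 743 an older symbol, and 12012 tested genes had a length. The paper calls the cells subclones and does not say that each library is a separate one, so that p-values measure only the spread between these samples, which may be technical. Depth was 11910141 to 21013004 reads per D6 library. Intervals cover counting error only. Some genes are not reported here.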

Additional observations from a re-analysis of the deposited data

Results flagged for a closer look

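The KO effect differed between D6 and D0 for 40 genes that were more positive and 137 that were more negative at D6, by the test of the difference itself. Among the genes named in the report, the difference of the log2 KO effects (D6 minus D0) was -9.89 for CST7, -7.38 for LGALS1, -4.80 for CAPG, -3.79 for HES1, -2.70 for PTGER3 and -2.59 for CD70, and 2.34 for TLN2. It was -6.19 for TPSAB1, -5.49 for TPSB2, -3.40 for GATA2, -2.02 for ENO3 and -1.81 for BST2, and 1.22 for ALAD. All 13 of these kept an adjusted p below 0.05 with the term for the subclone, where they ranged from 0.000608 (CST7) to 0.026 (ALAD). Groups of 2 and 3 libraries are too small for a test of single outlying libraries.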

How the results depend on the processing

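The number of DEGs (12 higher and 8 lower) was 549 and 354 with DESeq2, 745 and 449 with no filter on low counts, 1 and 0 with the D6 libraries alone, 2 and 0 with the length and GC offset, 1 and 0 with KO replicate 3 as the only KO library, 388 and 344 at an unadjusted p below 0.001, and 1567 and 1555 with thresholds relaxed to 0.05 for the adjusted p and 1 for the log2 fold change. DESeq2 and the fit with no filter each called all 20 DEGs. Leaving out single libraries gave 1 to 530 and 0 to 211. At an adjusted p below 0.05 (2940 and 2761), 1489 and 1711 genes passed with the offset, 400 and 314 with KO replicate 3 alone and 58 to 3444 and 94 to 3212 without single libraries, and 1655 were lower with the D6 libraries alone. At an unadjusted p below 0.05 the D6 libraries alone gave 3077 and 2545, the offset 2421 and 2593, KO replicate 3 alone 2478 and 2268, and the fit without WT replicate 2 gave 2554 and 2132. Some of these settings keep fewer libraries or test fewer genes, and otherwise the cause was not tested. Upper-quartile scaling moved the median of all genes from -0.01 to -0.11.

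Same-numbered KO and WT libraries deviated together only weakly (r = 0.20 and 0.21), and only 2 numbers are shared, so the numbers were not taken to pair the samples. A replicate block gave 53 and 69 DEGs and 3291 and 3169 genes at an adjusted p below 0.05. Combined with the offset, the block gave 7 and 6 DEGs and 1936 higher genes. The difference between days (40 and 137 genes) was called for 281 and 399 genes with DESeq2, for 211 and 341 with the subclone block, for 129 more positive with the offset and for 3 to 479 and 39 to 372 without single libraries.

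The log2 fold change of H2AFX was no longer called at -0.44 with the offset, -0.67 with offset and block and -1.36 with KO replicate 3 alone, and ranged from -1.91 to -1.16 without single libraries. With the offset, and with offset and block, the sign turned for AHSP (0.29 and 0.28), ICAM4 (0.28 and 0.28), BANF1 (0.10 and 0.081), NDUFS1 (-0.53 and -0.59) and the nucleoporin median (-0.053 and -0.10). It also turned for MT-ND3 with the offset (0.13) and for CDCA5 with both (0.0016). The length trend was 0.26 with median transcript lengths, 0.47 with the union of exons, 0.62 over genes with a mean of at least 100 normalized counts and 0.49 to 0.56 without single libraries. Of 95 named genes, 64 lost their call without WT replicate 2, 55 with KO replicate 3 alone and 23 with the offset, each in an unchanged direction, and none with DESeq2. Depth limits the genes near 0 in WT cells, such as SMAD1, SLFN13, ZNF569 and B3GALNT1, which rest on 2 to 4 WT reads in all.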
